A study of Mus musculus with 6 samples.

Results

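Cck, Angptl7, Ngef and Wfdc3 were the 4 genes with the largest fall in array signal from quiescent to activated hair follicle stem cells once the genes of the circadian clock were set aside. They were chosen by that fall, and every probe set annotated to one of them was then read in all cell groups: 5 probe sets of 45037 without the controls, for 4 of 18193 genes. RNA of 3 sorted cell populations from the back skin of untreated female CD-1 mice was hybridised to Affymetrix mouse arrays, 2 arrays per population. Quiescent stem cells (qHF-SC) came from mice of postnatal days 52 to 60 and were sorted with integrin α6 and CD34. For activated stem cells (aHF-SC) the sort used CD34, integrin α6 and GFP at postnatal days 28 to 30, and transient-amplifying matrix cells (HF-TAC), the dividing progeny that build the hair, with ephrin-B1, integrin α6 and GFP at the same age. The labels give neither the transgene that carried the GFP nor the number of animals behind an array, so the spread between arrays may be technical. The quiescent cells alone come from older mice and a sort without GFP, so age, sort and cell state cannot be told apart there.

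Hair follicle stem cells sit in the bulge of the follicle and stay out of the cell cycle for most of the hair cycle; at the onset of growth some are activated, and their progeny form the matrix. The 4 genes come from unrelated families. Cck encodes the precursor of cholecystokinin, a peptide that gut endocrine cells release as a hormone and neurons as a transmitter, and that acts on the G-protein-coupled receptors encoded by Cckar and Cckbr. Angptl7 encodes a secreted angiopoietin-like protein with a fibrinogen-like domain. Ngef encodes ephexin-1, a guanine nucleotide exchange factor that acts downstream of EphA receptors. Wfdc3 encodes a protein with whey acidic protein (WAP) domains, a fold found in secreted protease inhibitors.

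The sequences just before the annotated starts of the genes are shown as the regulatory sequence nearest to each gene. The members were chosen for 1 shared difference, so these windows give no evidence of shared control. Each is the 250 bases before the RefSeq start on GRCm38.p6, 5′ to 3′ on the minus strand of the chromosome, where all 4 genes lie. Capitals mark matches, on either strand, to 8 motifs that were chosen with these sequences in view.
Cck, chr9:121495695-121495944: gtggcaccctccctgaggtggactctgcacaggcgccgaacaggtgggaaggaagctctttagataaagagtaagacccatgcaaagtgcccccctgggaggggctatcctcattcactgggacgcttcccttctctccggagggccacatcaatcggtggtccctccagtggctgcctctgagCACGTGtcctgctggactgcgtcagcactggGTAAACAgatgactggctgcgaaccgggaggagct
Angptl7, chr4:148500463-148500712: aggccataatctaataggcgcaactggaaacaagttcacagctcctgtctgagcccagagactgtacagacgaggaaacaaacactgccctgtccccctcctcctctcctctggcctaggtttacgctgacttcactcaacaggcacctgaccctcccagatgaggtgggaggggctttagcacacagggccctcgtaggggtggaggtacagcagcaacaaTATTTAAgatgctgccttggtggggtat
Ngef, chr1:87573871-87574120: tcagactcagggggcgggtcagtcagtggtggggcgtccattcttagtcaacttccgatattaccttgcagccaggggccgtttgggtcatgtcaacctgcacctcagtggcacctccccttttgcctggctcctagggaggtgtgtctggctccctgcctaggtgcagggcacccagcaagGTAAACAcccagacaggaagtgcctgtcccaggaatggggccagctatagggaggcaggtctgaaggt
Wfdc3, chr2:164743268-164743517: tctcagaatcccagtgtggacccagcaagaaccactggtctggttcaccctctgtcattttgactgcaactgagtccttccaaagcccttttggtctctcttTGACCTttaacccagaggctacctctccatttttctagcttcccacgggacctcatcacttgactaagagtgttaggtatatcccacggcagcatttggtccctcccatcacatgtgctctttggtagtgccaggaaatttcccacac
The motifs searched were the E-box CACGTG, the D-box TTANGTAA, the nuclear receptor half-site AGGTCA, the cAMP response element TGACGTCA, the forkhead motif GTAAACA, the TATA-like motif TATTTAA, the TCF/LEF motif CTTTGAT and the AP-1 motif TGANTCA. The forkhead motif stood before Cck (bases 35 to 29 upstream of the start) and Ngef (68 to 62), and in 3.17% of all 32851 promoter windows of this length. The Cck window also held the E-box, which is in 6.02% of windows and is the element bound by the clock factors CLOCK and BMAL1. The Angptl7 window held the TATA-like motif (4.18% of windows) and the Wfdc3 window the nuclear receptor half-site (14% of windows). None of the D-box, the cAMP response element, the TCF/LEF motif or the AP-1 motif was in the 4 windows (2.06%, 1.55%, 3.21% and 6.75% of all windows). No motif of the 8 was shared by all 4 members. The share of G and C was 60% before Cck, 59.6% before Ngef, 54.4% before Angptl7 and 49.6% before Wfdc3, beside a median of 52.4% over all windows.

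Array quality and cell identity were read from the whole table. Replicate arrays correlated at r = 0.989 to 0.992 across genes (log2 intensity; genes are not independent of one another), and array medians lay between 22.8 and 24.0. Against qHF-SC, limma called 3.07% of all genes higher in aHF-SC and 3.21% lower, and from aHF-SC to HF-TAC 8.97% rose and 8.57% fell. Of 20 bulge genes HF-TAC had 18 lower relative to aHF-SC. Of 19 mitosis genes 17 were higher in aHF-SC relative to qHF-SC and all 19 higher in HF-TAC than in aHF-SC. Dissociation stress genes moved with the members' contrast: 12 of 19 were higher in aHF-SC relative to qHF-SC, with summed intensities of 37254 and 44550 in qHF-SC, 91660 and 129489 in aHF-SC and 63917 and 80217 in HF-TAC. Their part in the results below was not tested. Differentiated keratinocyte markers were lower in aHF-SC relative to qHF-SC for 4 of 13, with summed intensities of 40695 and 41100 in qHF-SC, against 27487 and 32816 in aHF-SC and 45687 and 68574 in HF-TAC. The part of these cells in the members' values was not tested. Merkel, nerve and Schwann cells are the other cells of skin in which a neuropeptide gene might be sought. Their markers summed to 395 and 512 in qHF-SC, against 576 and 888 in aHF-SC and 371 and 415 in HF-TAC. In the activated cells limma called 1 of 13 higher (Ngfr) and 0 lower, beside 3.07% and 3.21% of all genes. An unadjusted limma p under 0.05 in either direction was seen for 4 of 13, a threshold for which no share of all genes is given. Arrays of sorted cells cannot tell fewer expressing cells from less RNA per cell.

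Cck had the widest difference of the 4. Its probe set, 1419473_a_at, read 1639 and 1430 in the qHF-SC arrays, 11.8 and 11.2 in the aHF-SC arrays and 18.9 and 13.1 in the HF-TAC arrays. Both qHF-SC arrays stood far above the other 4, and the remaining arrays lay close to the level of genes that skin does not use. That background level was 12.9, the highest array median over 27 genes of other organs such as liver and pancreas. By this measure Cck was at background in aHF-SC (11.5 ± 0.465, SD, n = 2) and just above it in HF-TAC (18.9 and 13.1, SD 4.06, n = 2), against 1534 ± 148 (SD, n = 2) in qHF-SC. With the level taken over erythroid and muscle genes, 17.6, HF-TAC was at background too. The fitted signal was 133-fold lower in aHF-SC, and the smallest ratio between any qHF-SC and any aHF-SC array was 121. Because the lower signal was at background, the size of this fold is uncertain.

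Angptl7, through its probe set 1451478_at, read 2130 and 3257 in qHF-SC, 151 and 159 in aHF-SC and 18.1 and 33.1 in HF-TAC. The 3 groups did not overlap and stepped down in that order, with group means of 2694 ± 797, 155 ± 6.10 and 25.6 ± 10.6 (SD, n = 2 each). The qHF-SC arrays differed 1.53-fold from each other and the HF-TAC arrays 1.83-fold, while the fitted signal was 17.0-fold lower in aHF-SC relative to qHF-SC.

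Ngef, through 1448978_at, read 469 and 640 in qHF-SC, 33.0 and 31.1 in aHF-SC and 27.7 and 23.2 in HF-TAC. Its qHF-SC arrays were again far above the rest, and aHF-SC and HF-TAC lay next to each other. The group means were 555 ± 121, 32.0 ± 1.36 and 25.4 ± 3.20 (SD, n = 2 each), and the fitted signal was 17.1-fold lower in aHF-SC relative to qHF-SC.

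Wfdc3 had 2 probe sets, and they disagreed. The brighter, 1460012_at, read 3014 and 3878 in qHF-SC, 237 and 166 in aHF-SC and 40.3 and 37.4 in HF-TAC, so the 3 groups stepped down without overlap as for Angptl7. Its means were 3446 ± 611, 201 ± 50.0 and 38.8 ± 2.01 (SD, n = 2 each), and the fitted signal was 17.3-fold lower in aHF-SC relative to qHF-SC. The other, 1430224_at, read 11.2 and 15.5 in qHF-SC, 13.0 and 12.8 in aHF-SC and 12.9 and 9.76 in HF-TAC. That probe set lay at or near background in every array and its groups overlapped, so it carried no measurable Wfdc3 signal in these cells. All statements on Wfdc3 therefore rest on 1460012_at, and the mean of both probe sets gave a log2 difference of -2.07 between aHF-SC and qHF-SC, against -4.11. Cck, Angptl7 and Ngef each rested on a single probe set.

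**Figure D1:**
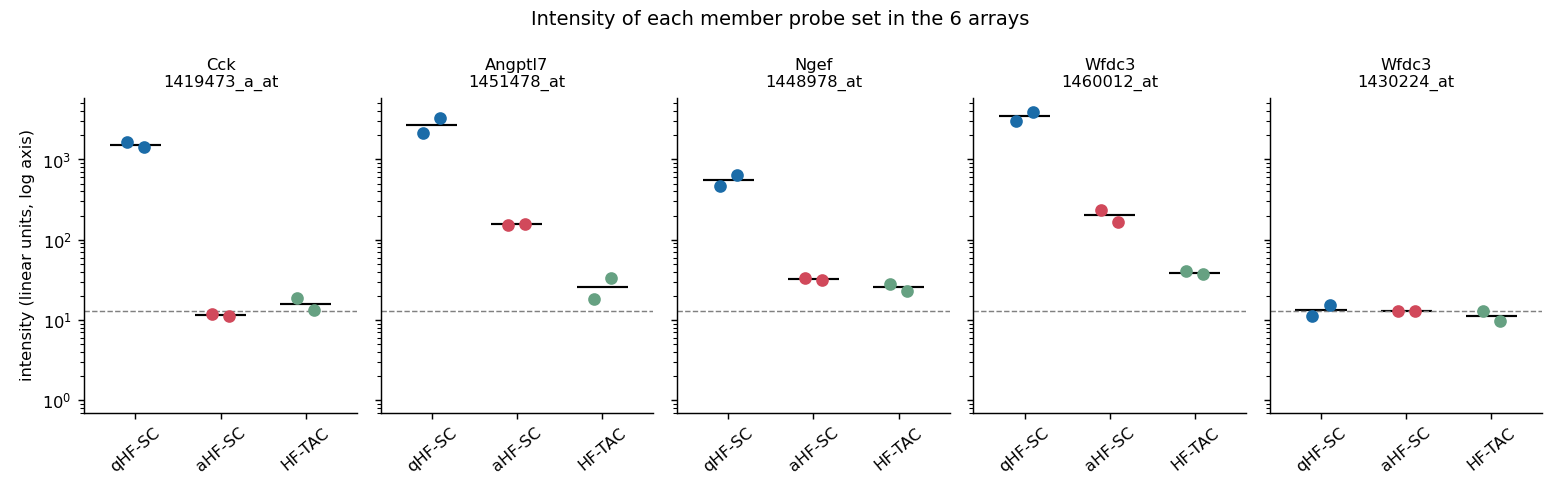
Intensity (log axis) of the 5 probe sets in each of the 6 arrays; points are arrays, black bars are group means over 2 arrays and the dashed line is the background level of 12.9. All qHF-SC points of Cck, Angptl7, Ngef and the probe set 1460012_at of Wfdc3 lie above every other point of their panel, and the second Wfdc3 probe set stays near the line throughout.

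The difference between aHF-SC and qHF-SC chose the members, so it is given here as a description with no test. Among all 18193 genes Cck ranked 1st by the size of the fall, Wfdc3 3rd, Ngef 4th and Angptl7 5th, with the clock output gene Dbp (31.5-fold lower) between Cck and Wfdc3. These 5 were the only genes 16-fold or more lower in aHF-SC in the fit (0.0275% of genes). For each of the 4 members both aHF-SC arrays lay below both qHF-SC arrays, as they did for 25.1% of all genes. The next genes outside the clock list were Cyp2b10, a cytochrome P450 (15.4-fold), Tent5b, of a terminal nucleotidyltransferase family (15.1-fold), Lor, of the cornified envelope (14.0-fold), Dram1, a lysosomal membrane protein (13.5-fold), and Tsc22d3, which glucocorticoids induce in many cells (13.2-fold). The step from Angptl7, the last member, to Cyp2b10 was thus from 17.0-fold to 15.4-fold. Cck ranked 1st outside the clock in all 17 alternative settings tried, whereas Angptl7, Ngef and Wfdc3 were each within the first 4 in 13 of them. Several of these settings could not change the order of this difference. They were 75th percentile scaling, median centring, the 2 groups alone, array weights, the replicate block and the fits without an HF-TAC array. The count of 13 therefore overstates how stable the order is. The worst ranks were 11 for Angptl7 and 10 for Ngef, when every probe set was ranked on its own, and 64 for Wfdc3, with the mean of its probe sets. Without single arrays the ranks reached 7 for Angptl7 (without aHF-SC replicate 1), 6 for Ngef (without qHF-SC replicate 1) and 7 for Wfdc3 (without qHF-SC replicate 1 or aHF-SC replicate 2).

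**Figure D2:**
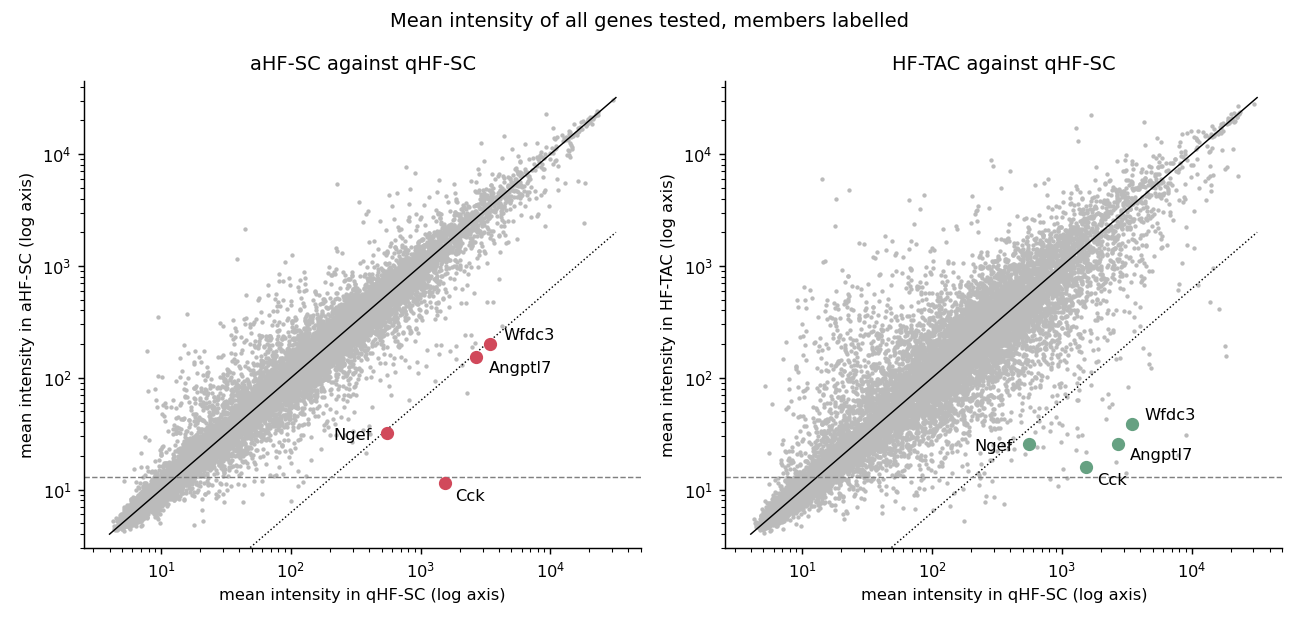
Mean intensity of every gene tested in aHF-SC (left) and HF-TAC (right) against its mean in qHF-SC, on log axes, with the members labelled; the solid line marks equal signal, the dotted line a 16-fold lower signal and the dashed line the background level of 12.9. All 4 members lie below the dotted line in both panels. Cck is the farthest below it on the left, and Angptl7 and Wfdc3 lie lower on the right than on the left.

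The HF-TAC arrays were not used to choose the members, and they give the level of the 4 transcripts in the progeny. All 4 fell against qHF-SC, where 12.9% of all genes were lower at an adjusted p under 0.05 (limma with Benjamini-Hochberg adjustment over all genes). The comparison shares the qHF-SC arrays with the one that chose the members, and genes picked for high qHF-SC signal are favoured in it. Angptl7 was 108-fold lower in HF-TAC than in qHF-SC (-6.75 ± 0.31 SE on the log2 scale, limma adjusted p = 4.04e-05). Cck was 97.2-fold lower (-6.60 ± 0.20, limma adjusted p = 1.51e-05) and Wfdc3 88.1-fold (-6.46 ± 0.22, limma adjusted p = 2.03e-05). Ngef was 21.6-fold lower (-4.43 ± 0.20, limma adjusted p = 3.98e-05). In ranks of fall these were the 6th, 7th, 10th and 46th of 18193 genes, and all 4 were among the 67 genes (0.368%) that were 16-fold or more lower in HF-TAC. The 4 calls held in all 17 alternative settings. The HF-TAC signal of Cck was near background (18.9 and 13.1). Those of Angptl7 (18.1 and 33.1) and Ngef (27.7 and 23.2) were also low beside the background levels of 12.9 and 17.6. The sizes of these 3 folds are therefore uncertain. Markers of other cells moved in the same comparison, where 13.4% of all genes were higher. Of infundibulum, isthmus and sebaceous gland markers 8 of 13 were higher in HF-TAC, with sums of 59512 and 78229 beside 15742 and 16251 in qHF-SC. Of inner root sheath and hair shaft markers 10 of 14 were higher (10933 and 23540 beside 1107 and 1288). Of dermal fibroblast markers 1 of 10 was higher and 1 lower, with sums of 3914 and 6433 beside 567 and 623. Their part in the members' values was not tested.

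The aHF-SC and HF-TAC cells were taken at the same age and both sorted with GFP, but the former with CD34 and the latter with ephrin-B1. Sort and cell state cannot be told apart between them either. The calls of the members differed here, and so did their room to fall. Cck in aHF-SC (mean 11.5) was already below the background level of 12.9, so a further fall could hardly be seen. Ngef stood at 32.0 there, against 155 for Angptl7 and 201 for Wfdc3. Angptl7 fell a further 6.33-fold (-2.66 ± 0.31 SE, limma adjusted p = 0.00189) and Wfdc3 a further 5.10-fold (-2.35 ± 0.22, limma adjusted p = 0.000823). The HF-TAC signal of Angptl7 was low (18.1 and 33.1), so the size of its step is uncertain. Cck and Ngef did not pass. The Cck difference was 0.46 ± 0.20 SE on the log2 scale (95% interval -0.02 to 0.93, limma adjusted p = 0.196), between levels at and just above background. The Ngef difference was -0.34 ± 0.20 (95% interval -0.80 to 0.12, limma adjusted p = 0.331), so a decrease of up to 0.80 remains within its error. Thus 2 of 4 members passed in the direction of a fall, beside 8.57% of all genes, and 0 of 4 in the direction of a rise, beside 8.97%. Arrays did not overlap in that direction for 3 of 4, beside 27.9%. This comparison shares the aHF-SC arrays with the one that chose the members, and a choice of low aHF-SC signals works against a further fall. The results of the 4 genes here stayed on the same side of the threshold in all 17 settings. Whether the step differs between the pairs of members was not tested.

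Profiles over the 6 arrays were compared after each was centred on its own mean log2 intensity. The root mean square difference was 0.37 log2 units between Angptl7 and Wfdc3 and 0.96 to 1.51 in the other 5 pairs of members. Ngef was nearer to Wfdc3 (0.96) and Angptl7 (1.14) than to Cck (1.27), so by this measure the members form 1 close pair and not 2. By correlation, which ignores the size of a change, Cck was nearer to Ngef (r = 0.99) than to Wfdc3 (0.91) or Angptl7 (0.88). Both measures use the arrays that chose the members and describe their profiles only.

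The genes whose profiles lay nearest differed between the members. Nearest to Ngef were Tef, a clock output factor of the PAR bZIP family (0.19 log2 units), Zbtb16, the zinc finger factor PLZF (0.32), Per2, a core clock repressor (0.32), Grik1, a kainate receptor subunit (0.34), and Mitf (0.37). Tef read 2625, 205 and 148 as group means in qHF-SC, aHF-SC and HF-TAC, and Zbtb16 812, 62.9 and 33.4. Mitf, the melanocyte master factor, stood at 1691, 175 and 85.9. Of 8 melanocyte markers, Mitf among them, 0 were higher and 1 lower in aHF-SC relative to qHF-SC, beside 3.07% and 3.21% of all genes. In HF-TAC against qHF-SC 4 were higher and 1 lower, beside 13.4% and 12.9%. The melanocyte enzyme gene Tyr read 6.69 to 18.9 and Tyrp1 18.4 to 88.0 over the 6 arrays, with their highest values in HF-TAC. The part of melanocytes in these values was not tested. Nearest to Cck were Dbp (0.92), Ngef (1.27), Wfdc3 (1.38), Zbtb16 (1.43) and Per2 (1.43), all far off. No other gene had a fall of that size from qHF-SC to aHF-SC, whereas in HF-TAC against qHF-SC Cck ranked 7th by fall.

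Nearest to Angptl7 was Wfdc3, followed by Pcolce2, an enhancer of procollagen processing (0.48), Ltbp2, a matrix protein of the latent TGF-beta binding family (0.59), Kcnma1, a calcium-activated potassium channel (0.59), and Serpinb11, of the clade B serpins (0.59). Pcolce2 read 1094, 127 and 12.8 as group means in qHF-SC, aHF-SC and HF-TAC, and Ltbp2 read 811, 126 and 12.4. Nearest to Wfdc3 were Angptl7, Dram1 (0.44), Kcnma1 (0.50), Il31ra, a receptor for interleukin 31 (0.58), and Pcolce2 (0.58). Angptl7 and Wfdc3 thus named each other first and had Kcnma1 and Pcolce2 in common, whereas Ngef and Cck had Zbtb16 and Per2 in common. Clock genes, 21 of the 18193 measured, made up 2 of the 5 nearest to Cck and 2 of the 5 nearest to Ngef, but 0 of those nearest to Angptl7 or Wfdc3. Several had themselves some of the largest falls from qHF-SC to aHF-SC (Dbp 2nd, Nr1d2 9th, Per2 12th and Tef 14th). The members were chosen by that same fall, so clock genes among the nearest follow in part from the choice and give no evidence of a link. When likeness was taken as Pearson correlation among the 1134 genes whose group means spanned at least 2 log2 units, which ignores the size of a change, 2 of the 5 names were kept for Cck, 1 for Ngef and 0 for Angptl7 and Wfdc3. The clock genes named by correlation were then Dbp and Nr1d2 for Cck and Tef, Hlf and Dbp for Ngef.

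**Figure D3:**
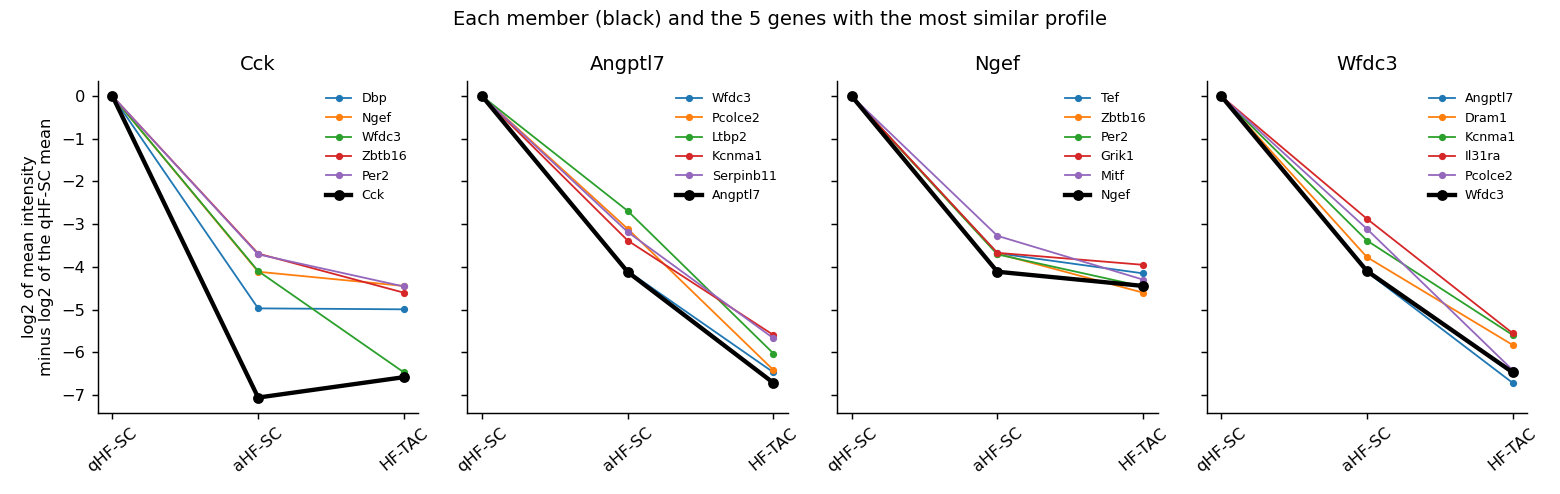
Log2 of the group mean intensity minus that of qHF-SC, in the 3 groups, for each member (black) and the 5 genes with the smallest root mean square difference from it over the 6 arrays. From aHF-SC to HF-TAC the line of Ngef moves by -0.34 and that of Cck by 0.46, while those of Angptl7 and Wfdc3 move by -2.66 and -2.35.

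The receptors of cholecystokinin and the enzymes that process its precursor were read from a list of their own. The receptor genes were low in all 6 arrays, Cckar at 5.93 to 6.45 and Cckbr at 17.7 to 18.7, and Gast, which encodes the related hormone gastrin, read 14.9 to 23.9. Of 13 measured genes of the receptor and processing list 0 passed between aHF-SC and qHF-SC (limma), where 6.28% of all genes were called. An unadjusted limma p under 0.05 was seen for 4 of the 13, a threshold for which no share of all genes is given. The median log2 difference of the list was -0.055, against 0.0048 over all genes. Of its genes 3 were at background in all 3 groups, where a fall could hardly be seen. Cpe, a carboxypeptidase that trims prohormones, read 2580 and 3123 in qHF-SC, against 2306 and 1654 in aHF-SC and 2114 and 2371 in HF-TAC. In HF-TAC against qHF-SC 4 of 13 were lower, beside 12.9% of all genes, and 0 higher. Among them Tpst1, which sulphates tyrosines of secreted proteins such as cholecystokinin, fell 3.69-fold (limma adjusted p = 0.000597), from 785 and 718 to 172 and 240. Ctsl, the protease cathepsin L, fell 2.85-fold (adjusted p = 0.00514 by limma) and Pam, the enzyme of peptide amidation, 2.84-fold (0.00577).

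Of 26 other neuropeptide and gut hormone genes measured, 0 passed between aHF-SC and qHF-SC (limma), beside 6.28% of all genes called. The median was 0.047 on the log2 scale. An unadjusted limma p under 0.05 was seen for 2 of the 26, again without a share of all genes at that threshold. Of the 26 genes 10 were at background in all 3 groups, where a fall could hardly be seen. The absence of calls therefore says little about these genes. In HF-TAC 4 rose against qHF-SC, beside 13.4% of all genes, and the largest of these was Grp, gastrin-releasing peptide, from 8.69 and 9.55 to 15.1 and 17.2. The qHF-SC values of Grp were below the background level of 12.9. Its HF-TAC values were below the level of 17.6 taken over erythroid and muscle genes. None of the 4 calls held without qHF-SC replicate 1, without qHF-SC replicate 2 or without HF-TAC replicate 2.

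The relatives of Angptl7 were mostly dim. Of 8 measured genes of angiopoietins, angiopoietin-like proteins and their Tie receptors, 1 rose and 0 fell from qHF-SC to aHF-SC, where 3.07% and 3.21% of all genes did. The one that rose was Tek, the angiopoietin receptor Tie2, which read 8.28 and 7.81 in qHF-SC, 24.5 and 31.6 in aHF-SC and 9.49 and 7.72 in HF-TAC. Only its aHF-SC arrays were above the background level of 12.9, so no fold is given. The rise from qHF-SC passed (limma adjusted p = 0.00504) but missed the threshold once qHF-SC replicate 2 was dropped (adjusted p = 0.0534), and the fall from aHF-SC to HF-TAC passed (limma adjusted p = 0.00152). Angptl4, an inhibitor of lipoprotein lipase, read 204 and 296 in qHF-SC, against 1186 and 591 in aHF-SC and 242 and 116 in HF-TAC, the opposite order to Angptl7 between the stem cell groups. Its difference between aHF-SC and qHF-SC missed the threshold (1.77 ± 0.43 SE, limma adjusted p = 0.0593). It passed with 75th percentile scaling (limma adjusted p = 0.046), with array weights (0.0446) and with only the 2 groups compared (0.033). With probe sets that can match several transcripts left out, this log2 difference was 0.16, so the opposite order rests on 1 probe set. Angptl4 passed as a fall from aHF-SC to HF-TAC (4.99-fold, limma adjusted p = 0.0106). That fall missed the threshold when aHF-SC replicate 1 was dropped (adjusted p = 0.0512), and through a probe set of another type, chosen to match single genes, the log2 difference was -0.05.

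Around Ngef, the other ephexins, the EphA receptors that signal through them and their ephrin-A ligands numbered 19, all measured. From qHF-SC to aHF-SC 1 rose and 2 fell, against 3.07% and 3.21% of all genes, with a list median of 0.041 on the log2 scale. Arhgef5, another exchange factor of the ephexin family, fell 1.81-fold (limma adjusted p = 0.0425), from 818 and 1072 to 491 and 545, and Arhgef26 2.01-fold (adjusted p = 0.0425). Epha1 rose 2.09-fold (limma adjusted p = 0.0321). Each of the 3 calls ended without either qHF-SC array, those of Arhgef5 and Arhgef26 also without either aHF-SC array and that of Epha1 without aHF-SC replicate 2, at adjusted p from 0.0571 to 0.25. With 16 added to each intensity before the log, all 3 missed the threshold (adjusted p = 0.0658, 0.116 and 0.0673). Epha4, a receptor known to act through ephexin-1, read 296 and 222 in qHF-SC, against 657 and 371 in aHF-SC and 299 and 288 in HF-TAC and did not pass (limma adjusted p = 0.103 between the stem cell groups), but did without aHF-SC replicate 2 (0.0443).

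In HF-TAC against qHF-SC, 5 of the 19 fell and 2 rose, beside 12.9% and 13.4% of all genes. Efna5, an ephrin-A ligand, fell 3.50-fold (limma adjusted p = 0.000995) and Arhgef5 2.96-fold (adjusted p = 0.00101), and the receptor gene Epha2 rose 2.33-fold (adjusted p = 0.00164). The count of falls was 3 without qHF-SC replicate 2. The other rise, of Arhgef26, was near the threshold (limma adjusted p = 0.0488) and was lost in 5 of the 6 fits that left out 1 array, the exception being HF-TAC replicate 1 (highest adjusted p = 0.235, without qHF-SC replicate 1).

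Of the WAP domain genes and related inhibitors beside Wfdc3, 19 were measured, of which 1 rose and 1 fell from qHF-SC to aHF-SC, beside 3.07% and 3.21% of all genes. Wfdc18 rose 6.75-fold (limma adjusted p = 0.0161), from 105 and 47.3 to 670 and 336, against the direction of Wfdc3. Leaving out qHF-SC replicate 2 (adjusted p = 0.088) or aHF-SC replicate 1 (0.0775), or adding 16 to each intensity before the log (0.06), ended its call. Its only probe set is of a type that can match several transcripts. Spink5, an inhibitor of kallikreins in the upper epidermis, fell by 2.32 on the log2 scale (limma adjusted p = 0.034), from 159 and 125 to 37.3 and 21.4, and lost its call whichever stem cell array was dropped (adjusted p = 0.0775 to 0.153) and with 16 added to each intensity (0.109). Wfdc21 read 575 and 561 in qHF-SC, 132 and 35.9 in aHF-SC and 341 and 36.2 in HF-TAC and did not pass (limma adjusted p = 0.134). In HF-TAC Wfdc18 was 9.32-fold higher than in qHF-SC (adjusted p = 0.00167 by limma), with 2 of 19 higher and 0 lower, beside 13.4% and 12.9% of all genes. The other was Spint1, a membrane-bound inhibitor of serine proteases, which missed the threshold once qHF-SC replicate 1 (adjusted p = 0.0973), qHF-SC replicate 2 (0.0712) or HF-TAC replicate 2 (0.0888) was dropped.

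**Figure D4:**
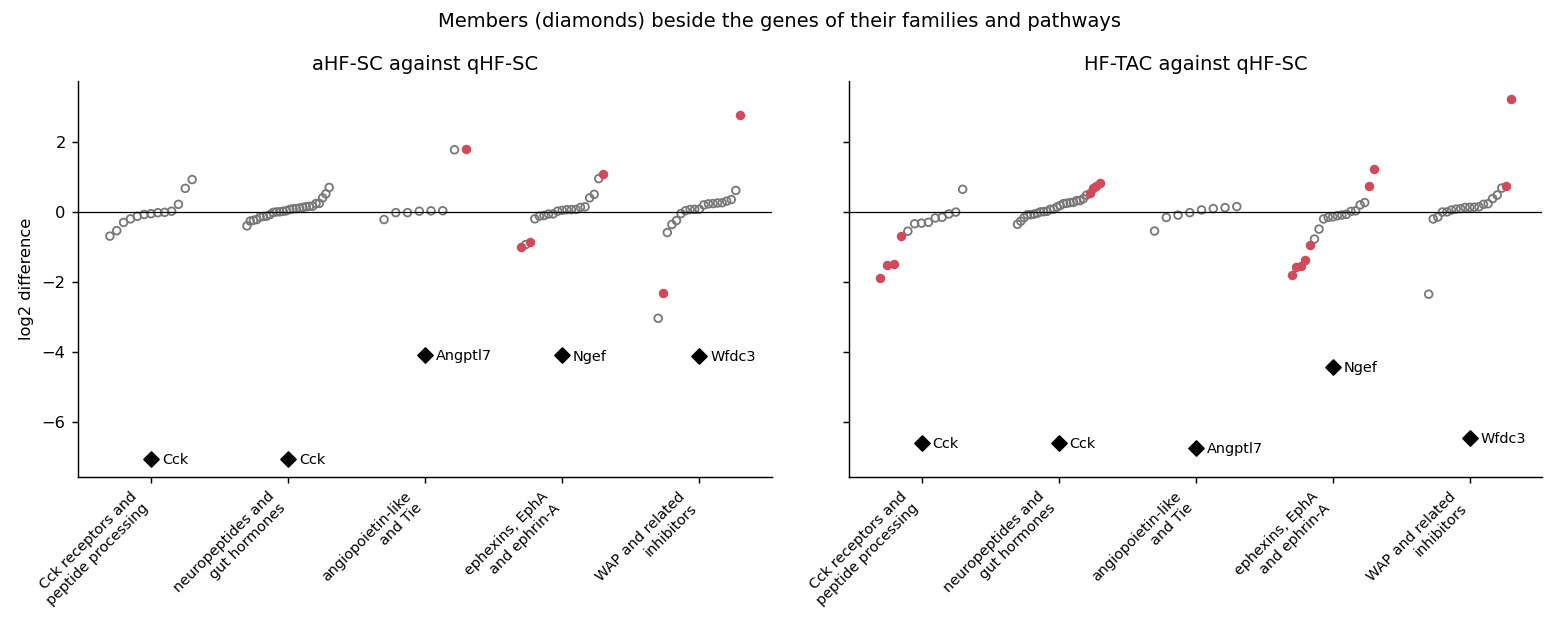
Log2 difference of aHF-SC (left) and HF-TAC (right) from qHF-SC for the genes of each member's families and pathways; filled red points passed an adjusted p of 0.05 in limma, open points did not, and black diamonds are the members, which were chosen by the left comparison. Most list genes lie near 0, and every member lies below all genes of its own lists in both panels.

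The neighbours of the members on the chromosome were examined too, by the order of protein-coding genes in RefSeq. Of the 16 genes that are the nearest and second nearest on either side, 14 were measured. From qHF-SC to aHF-SC 1 of them fell and 1 rose, beside 3.21% and 3.07% of all genes. The one that fell was Snorc, next to Ngef, with means of 150 and 70.4 (log2 difference -1.06, limma adjusted p = 0.0406), but missed the threshold once qHF-SC replicate 2 (adjusted p = 0.188) or aHF-SC replicate 1 (0.133) or 2 (0.16) was dropped, or 16 was added to each intensity (0.0842). The one that rose was Ube2c, 2 genes from Wfdc3, a ubiquitin-conjugating enzyme of mitotic exit. Its means were 66.6 in qHF-SC, against 548 in aHF-SC and 3922 in HF-TAC, the reverse order to Wfdc3 (log2 difference 2.97, limma adjusted p = 0.00396). Dnttip1, which lies between them, read 767, 710 and 633 and did not pass (limma adjusted p = 0.793). The neighbours of Cck, among them Trak1 (234, 294 and 209) and Lyzl4 (8.44, 7.89 and 9.95), and those of Angptl7, Mtor (231, 216 and 253), Exosc10 (338, 386 and 388) and Srm (748, 894 and 927), did not pass in this comparison.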

How the data were processed

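The authors deposited probe set intensities on a linear scale. RMA is named, without a version, per the submitters' processing notes; how it was run is not stated there. RMA summaries compress large folds and dim signals. Intensities were converted to log2. Of the probe sets other than 64 controls, 34945 had 1 gene symbol in the platform annotation, 932 had several and 9160 had none, and each of 18193 genes was read through its brightest probe set. Group means of the 6 arrays were estimated together with limma 3.58.1 (R 4.3.3; 3 residual and 4.25 prior degrees of freedom), two-sided, Benjamini-Hochberg adjusted over all genes, threshold 0.05. The procedure was tested on simulated data. With 2 arrays a group, array number limits precision.

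The members and lists were chosen with earlier results of these data known. Genes named are the members, the 5 nearest to each by root mean square difference, the 5 next largest falls, up to 4 called genes per family list, and receptors or relatives of the members; Cpe, Ngfr, Tyr, Tyrp1, Wfdc21 and the chromosome neighbours were added after values were seen. Alternatives covered scaling, probe set choice, an offset, a filter on dim genes, array weights, a replicate block and single arrays left out. Results on 1 further gene list are not reported here.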

Additional observations from a re-analysis of the deposited data

How the results depend on the processing

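With every probe set tested on its own, limma called 1059 higher and 1200 lower in aHF-SC against qHF-SC, 2691 and 2466 in HF-TAC against aHF-SC, and 4659 and 4403 in HF-TAC against qHF-SC, more features than the 18193 genes being tested. With 16 added to each intensity the first comparison called 215 higher and 333 lower, and its log2 difference was -5.81 for Cck and -3.55 for Ngef. The mean of both probe sets gave -2.07 for Wfdc3, and erythroid and muscle genes put the background level at 17.6. Leaving out 1 array gave 54 to 634 higher and 70 to 720 lower in aHF-SC against qHF-SC, both lowest without qHF-SC replicate 2. It gave 766 to 1550 and 877 to 1316 in HF-TAC against aHF-SC, lowest without aHF-SC replicate 2, and 1361 to 2308 and 1532 to 2280 in HF-TAC against qHF-SC, lowest without qHF-SC replicate 2. The Angptl4 difference between HF-TAC and qHF-SC, which did not pass, turned to 0.10 without the _x_at and _s_at probe sets. Wfdc18 has no other probe set and gave no value there. The cause of these shifts was not tested.

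Deviations of same-numbered arrays correlated across genes at 0.061, -0.13 and 0.084. These values give no sign of pairing by replicate number but cannot show that it was absent. When replicate number was a block, limma called 410 higher and 479 lower in aHF-SC against qHF-SC, 1422 and 1414 in HF-TAC against aHF-SC, and 2304 and 2226 in HF-TAC against qHF-SC. In that fit Arhgef5 (adjusted p = 0.0673) and Snorc (0.0508) missed the threshold between the stem cell groups.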
